A study of Lactuca sativa with 20 samples.

Results

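The comparison described here set lettuce seedlings given CLE12p together with abscisic acid (ABA) against seedlings given ABA without the peptide. It was chosen by the treatment labels and took 6 of the 20 libraries of the series and all 23413 genes that could be tested. Whole 4-day-old seedlings of *Lactuca sativa* var. Little Gem, grown in continuous light, were held for 2 h in solution before RNA was extracted and sequenced. The 3 libraries of CLE12p with ABA had 10 µM of each compound, and the 3 libraries of ABA had 10 µM ABA. The peptide's effect was also measured in 4 further groups of 3 libraries, namely CLE12p with ACC against ACC and CLE12p against water, with every compound at 10 µM. The study's design text names a mixture of ABA and ACC where the sample labels name CLE12p with ACC. The labels were followed, so every value beside ACC rests on them. A further pair of libraries held 0.02% ethanol, the vehicle control. The labels do not say whether the solutions of ABA, or of CLE12p with ABA, held ethanol, nor whether each replicate came from its own batch of seedlings. The p-values therefore measure the spread between these libraries, which may be partly technical.

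ABA is the plant hormone of drought, salt and seed dormancy. Its binding to soluble receptors blocks a group of protein phosphatases, which frees kinases that act on transcription factors and ion channels, and it also promotes leaf senescence. CLE peptides are short signals cut from secreted precursor proteins and are sensed at the cell surface by receptor kinases with leucine-rich repeats. They are best known for setting the size of stem cell pools in meristems. CLE12p is the study's name for the peptide of its gene *LsCLE12*, and the series title sets it in the context of delayed senescence. In plants ACC is turned into the gas hormone ethylene. The comparison asks which transcripts the peptide moves when it is given together with ABA.

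Library totals lay between 20636520 and 23129094 counts in the 6 libraries and between 18614220 and 27101622 over all 20. The table's gene identifiers carry no names and 0 of 37828 matched the reference gene table, so genes are given by identifier, at most 2 higher and 2 lower in each comparison. For the same reason no pathway can be described, the label of whole seedling could not be set against marker genes, and no sequence is shown. The libraries of CLE12p with ABA varied more among themselves than those of ABA. Their median SD per gene was 0.161 against 0.125 log2 CPM (counts scaled to the TMM-adjusted library total, 3 libraries each). The other groups with the peptide varied more too. The SD was 0.166 in CLE12p with ACC against 0.129 in ACC, and 0.177 in CLE12p against 0.149 in water. On the first principal component of the 6 libraries, which held 35.7% of their variance, CLE12p with ABA replicate 2 lay at 49.4, replicates 1 and 3 at 15.2 and 18.0, and the ABA libraries between -31.6 and -23.0. Replicate 2 was thus the library of CLE12p with ABA that lay farthest from ABA, and the counts are also given without it.

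CLE12p raised 620 genes and lowered 299 in seedlings that had ABA. These are 2.65% and 1.28% of the genes tested, 3.93% in all, at an adjusted p below 0.05 in edgeR's quasi-likelihood test. The rising genes changed more, by a median of 1.64-fold with an interquartile range of 1.42 to 2.09, and 173 of the 620 changed at least 2-fold. The falling genes changed by a median of 1.42-fold (1.31 to 1.58), and 34 of the 299 changed at least 2-fold. In the set of all genes tested the median log2 fold change was 0. The scaling between libraries centres most genes near no change, so this value cannot show whether all genes shifted together. In whole seedlings, a change in how many cells of a type are present and a change in RNA per cell cannot be told apart. Without CLE12p with ABA replicate 2, 319 genes rose and 62 fell, and the number of calls was 435, 505 and 523 without ABA replicates 1, 2 and 3.

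The called genes were a small part of the transcript pool. The 620 rising genes took 3.05%, 3.66% and 3.14% of all counts in the libraries of CLE12p with ABA and 2.03%, 2.03% and 2.06% in the libraries of ABA. The 299 falling genes took 1.99%, 1.68% and 2.08% with CLE12p and ABA, and 2.67%, 2.61% and 2.54% with ABA. In both sets the groups did not overlap, which the choice of genes fixes. A test against a fold of 1.5 in place of 0 kept 58 rising genes (0.248% of those tested) and 3 falling genes (0.0128%), together 0.261%. The 58 genes had a median rise of 3.19-fold.

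The level of a gene set how small a change could be seen. Among the 11083 genes with a mean of 10 to 100 CPM, 421 rose and 207 fell, and the median standard error of the log2 fold change was 0.10. Among the 1922 genes over 100 CPM the standard error was 0.078, and 82 rose and 34 fell. Among the 2933 genes under 1 CPM it was 0.63, and 9 rose and 3 fell. These 12 calls had a median change of 11.8-fold, so at that level small changes could not pass. For 58.3% of the genes tested the 95% confidence interval of the fold change lay within 1.5-fold of no change, and for 78.0% within 2-fold. Among genes over 100 CPM the interval lay within 1.5-fold for 89.4%, called genes included.

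**Figure D1:**
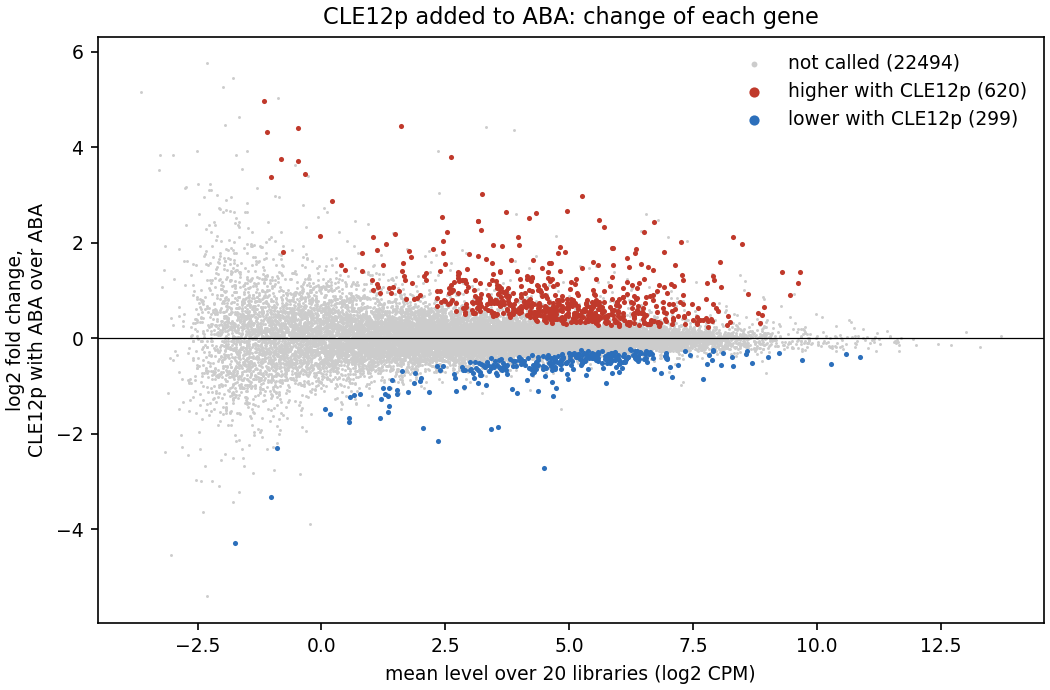
Log2 fold change of CLE12p with ABA over ABA (vertical axis) for each of 23413 genes against the mean level over 20 libraries in log2 CPM (horizontal axis). Red points are the 620 genes that were higher, blue points the 299 that were lower, and grey points were not called; the red points reach farther from 0 than the blue ones across most of the range.

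Lsat_1_v5_gn_4_13901 had the smallest p of all genes. Its level was 142, 148 and 147 CPM in the 3 libraries of CLE12p with ABA and 29.9, 30.8 and 32.8 CPM in those of ABA. Every library with the peptide stood far above every library without it, and it rose 4.67-fold (log2 fold change 2.22 with SE 0.092; adjusted p = 1.33e-12, edgeR). The change with ABA itself did not pass the test (adjusted p = 0.369, edgeR), with 31.2 ± 1.43 CPM in ABA (SD, n = 3) and 35.1 ± 0.125 CPM in ethanol (SD, n = 2). The peptide alone brought it to 168, 147 and 190.5 CPM, against 30.9, 35.5 and 33.4 CPM in water. With ACC, it stood at 174, 148 and 177 CPM with the peptide and at 38.5, 41.1 and 36.2 CPM without it. The effect beside ABA differed from that in water by -0.12 on the log2 scale (95% interval -0.38 to 0.14) and from that beside ACC by 0.11 (-0.15 to 0.37). These intervals leave room for a difference of at most 0.38 log2 units in a change of about 2.22.

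Lsat_1_v5_gn_1_22221 followed the same pattern at a lower level. It had 100.3, 90.5 and 111 CPM in CLE12p with ABA and 24.8, 28.2 and 28.3 CPM in ABA, which is a 3.71-fold rise (log2 fold change 1.89 with SE 0.092; adjusted p = 1.98e-11, edgeR). Its levels with the peptide alone were 94.1, 78.9 and 95.4 CPM, against 23.9, 22.9 and 23.6 CPM in water. The log2 fold changes in water and beside ACC were 1.93 and 1.90. The libraries without CLE12p all lay between 22.6 and 30.4 CPM, whichever hormone or vehicle they held, and those with it between 78.9 and 113 CPM.

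The gene with the smallest p among those that fell was Lsat_1_v5_gn_2_25400. It had 19.5, 14.8 and 15.4 CPM in CLE12p with ABA and 33.3, 31.7 and 28.7 CPM in ABA, so the groups did not overlap, and it was 1.89-fold lower (log2 fold change -0.92 with SE 0.10; adjusted p = 9.34e-06, edgeR). It also fell with the peptide in water (20.6, 18.2 and 16.6 CPM, against 38.1, 35.7 and 37.9 CPM) and beside ACC (13.0, 14.3 and 14.2 CPM, against 24.6, 28.4 and 24.4 CPM). The difference of its effect beside ABA from that in water was 0.10 (95% interval -0.21 to 0.40) on the log2 scale.

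Lsat_1_v5_gn_5_151201 was a gene that ABA raised and CLE12p lowered. It had 33.1, 18.5 and 29.2 CPM in CLE12p with ABA and 62.5, 60.6 and 63.1 CPM in ABA, and was thus 2.30-fold lower (log2 fold change -1.20 with SE 0.14; adjusted p = 1.33e-05, edgeR). Levels without a hormone were 31.4, 30.2 and 31.8 CPM in water and 31.7 and 28.6 CPM in ethanol, so the level in ABA was 2.06-fold that in ethanol (adjusted p = 9.56e-05, edgeR). With both compounds the gene stood at 26.9 ± 7.57 CPM (SD, n = 3), and its change over ethanol did not pass the test (-0.16, 95% interval -0.49 to 0.17; adjusted p = 0.575). These last comparisons share libraries with the one between CLE12p with ABA and ABA. The peptide alone lowered it to 14.7, 14.7 and 14.8 CPM. The libraries of ACC without the peptide had 8.90, 9.31 and 7.47 CPM. Those of CLE12p with ACC had 5.07, 7.22 and 7.01 CPM, and that change did not pass the test (-0.41, adjusted p = 0.202, edgeR). The effect beside ABA differed from that in water by -0.12 (adjusted p = 0.914, edgeR) and from that beside ACC by -0.79 (adjusted p = 0.0789, edgeR). Neither difference passed the test.

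**Figure D2:**
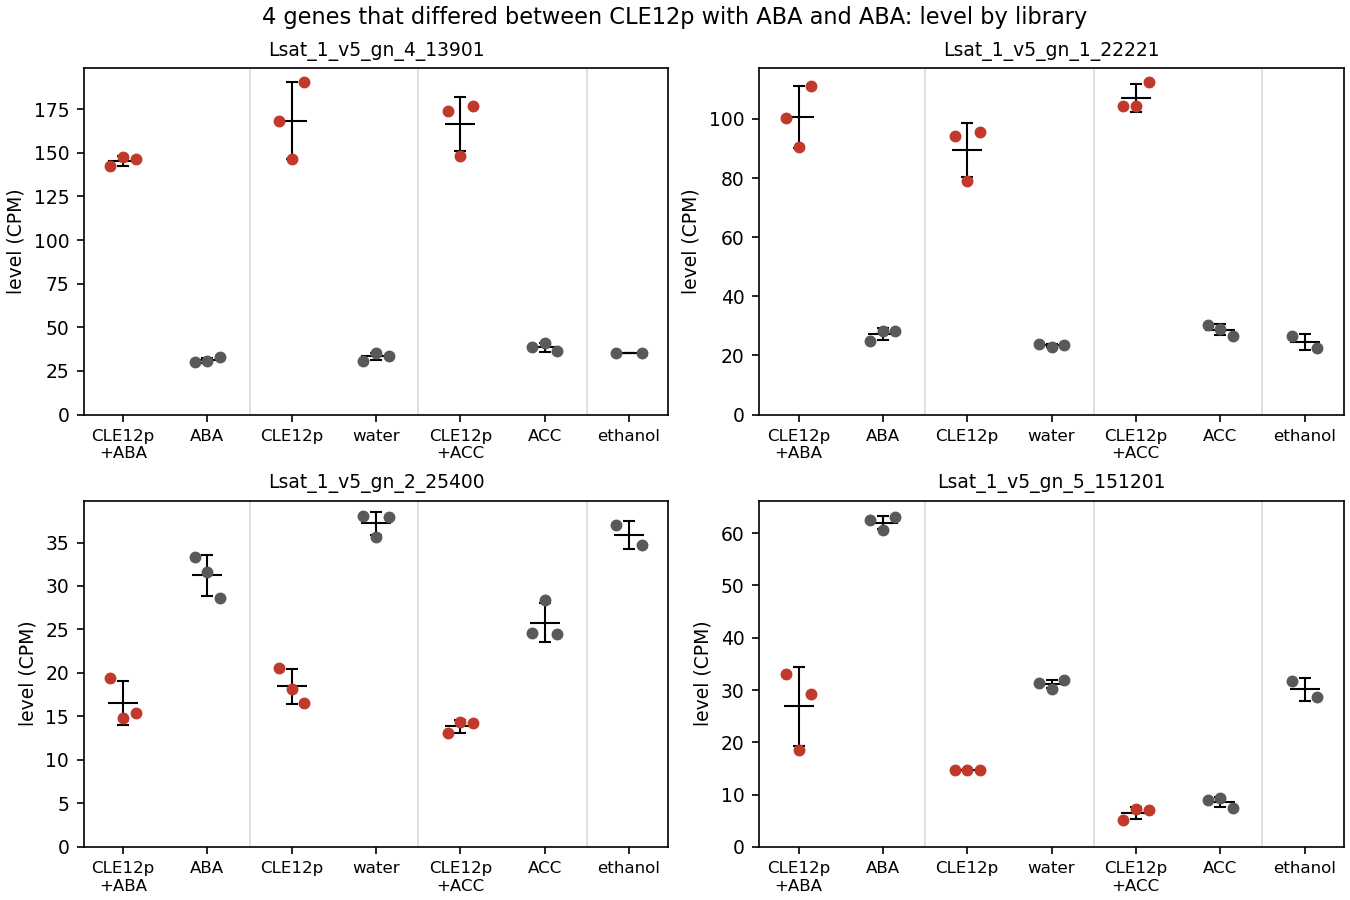
Level in CPM (vertical axis) of 4 genes in each library of the 7 groups; red points are libraries with CLE12p, grey points libraries without it, and bars give the mean ± SD (n = 3, ethanol n = 2). In the upper panels the red points stand above all grey points in every background, while the level of Lsat_1_v5_gn_5_151201 was 62.0 ± 1.32 CPM in ABA and below 34 CPM in all other groups.

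The peptide's effect beside ABA was set against its effect in water and beside ACC, in comparisons that share no library with it but come from the same fit over all 20 libraries. CLE12p against water raised 4.35% and lowered 0.991% of the genes tested (5.34% in all), and CLE12p with ACC against ACC raised 3.26% and lowered 1.73% (4.98% in all). Of the 620 genes that rose beside ABA, 395 also rose in water. They make up 63.7% of the 620 genes and 38.8% of the 1019 that rose in water. With 1 library left out, the genes that rose in both numbered 265 (without CLE12p with ABA replicate 2) to 555 (without CLE12p replicate 2). Beside ACC 289 of the 620 rose, or 46.6% of the 620 and 37.9% of the 763 that rose there, while 12 fell. With 1 library left out, the count of 289 became 214 to 280. Over the 620 genes, the median log2 fold change was 0.61 in water and 0.38 beside ACC, where the median of all genes tested was -0.00087 and 0.0017. Of the 225 that rose beside ABA and were not called in water, 208 had a fold change above 0 there, with a median of 0.26.

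Fewer of the genes that fell beside ABA were called in the other backgrounds. In water 51 of the 299 also fell, or 17.1% of the 299 and 22.0% of the 232 that fell in water. The genes that fell in both depended on single libraries. They numbered 55, 22 and 50 without replicates 1, 2 and 3 of CLE12p with ABA, and 21, 27 and 32 without those of ABA. They numbered 28, 90 and 32 without replicates 1, 2 and 3 of CLE12p, and 27, 28 and 70 without those of water. Beside ACC 23 fell, which is 7.69% of the 299 and 5.69% of the 404 that fell there, and 1 rose. The count of 23 became 23, 11 and 16 without replicates 1, 2 and 3 of CLE12p with ABA. It became 11, 12 and 15 without those of ABA. It became 14, 12 and 25 without replicates 1, 2 and 3 of CLE12p with ACC, and 15, 7 and 16 without those of ACC. The median log2 fold change of the 299 genes was -0.24 in water and -0.083 beside ACC. Of the 248 that were not called in water, 213 had a fold change below 0 there, with a median of -0.20. The falling genes also changed less beside ABA than the rising ones, and the difference in recurrence between the rising and the falling genes was not tested. A cut at 2-fold beside ABA left 173 rising and 34 falling genes. Of these, 123 and 5 were also called in water in the same direction. In water 4.35% of all genes tested were called higher and 0.991% lower. Of the 173 genes 167 lay above 0 in water, with a median log2 fold change of 1.18. Of the 34 genes 28 lay below 0 there, with a median of -0.41. Whether the size of the change accounts for the recurrence was not tested.

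The share of counts was also taken in the libraries outside the contrast that chose the genes. These libraries did enter the shared filter and the estimate of the spread, and a fit with the 6 compared libraries alone called 1112 genes, 784 of them among the 919. The 620 rising genes took 3.80% to 4.49% of counts in the libraries of CLE12p and 2.62% to 3.03% in water. They took 4.65% to 4.87% in CLE12p with ACC and 3.62% to 3.64% in ACC, so the libraries with the peptide stood above those without it in both backgrounds. The 299 falling genes took 1.79% to 2.03% in CLE12p and 2.19% to 2.32% in water. Beside ACC the ranges met, at 1.63% to 1.86% with the peptide and 1.82% to 1.91% without it.

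**Figure D3:**
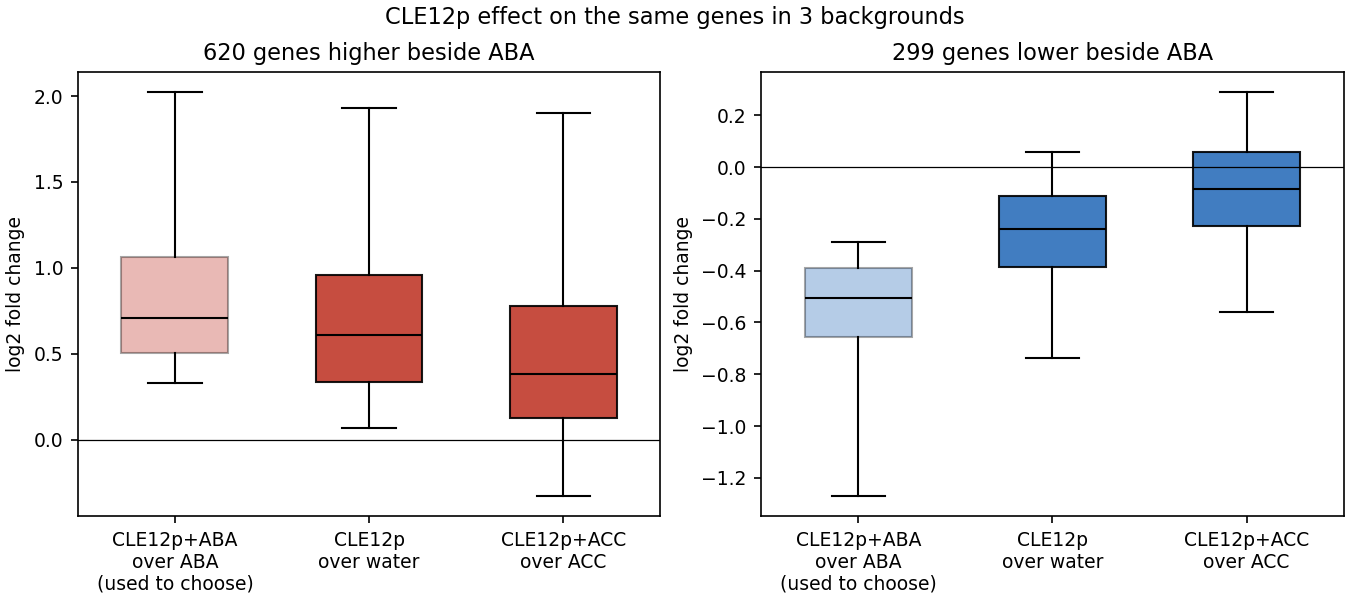
Log2 fold change (vertical axis) of the 620 genes that rose beside ABA (left) and the 299 that fell (right), for CLE12p with ABA over ABA, CLE12p over water and CLE12p with ACC over ACC; boxes give the quartiles and median, whiskers the 5th and 95th percentiles of genes. The pale boxes show the comparison that chose the genes; the medians of the rising genes are 0.71, 0.61 and 0.38, those of the falling genes -0.50, -0.24 and -0.083.

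Most of the 58 genes that passed the test against 1.5-fold beside ABA were called in the other backgrounds too. In water 54 of them also rose and beside ACC 52 did, while 1 fell beside ACC. Their median log2 fold change was 1.68 beside ABA, 1.76 in water and 1.69 beside ACC. With any 1 of the 6 libraries left out, 45 to 72 rising genes passed the test against 1.5-fold. By direction, 261 genes rose and 15 fell in all 3 backgrounds. Another 197 rising genes (31.8% of the 620) and 240 falling genes (80.3% of the 299) were called beside ABA and in neither other background in the same direction. Their median log2 fold changes beside ABA were 0.63 and -0.48.

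A smaller group held whichever of the 6 libraries was left out. It had 253 rising genes, with a median of 1.79-fold, and 39 falling genes, with a median of 1.59-fold. Of these 253, 225 (88.9%) also rose in water and 178 (70.4%) beside ACC, while 2 fell there. Of the 39 falling genes, 18 (46.2%) also fell in water and 6 (15.4%) beside ACC. The median log2 fold change of the 39 genes beside ACC was -0.020.

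Whether the peptide's effect itself differed beside ABA and in water was tested gene by gene as the difference of both fold changes. With edgeR 1 gene passed (0.00427% of those tested), and 1837 genes had an unadjusted p below 0.05. None of the 620 rising and 299 falling genes passed it with edgeR. That a gene was called beside ABA and not in water is therefore no measure of a different effect. Of the 620 genes 114 had an unadjusted p below 0.05, 87 of them with a difference above 0. Of the 299 genes 91 did, all with a difference below 0. The change beside ABA that chose these genes is part of the difference, which favours small p in the chosen direction. Nothing is read from these counts. The median half-width of the 95% interval of the difference was 0.43 on the log2 scale. For 489 of the 620 rising genes and 249 of the 299 falling genes the interval lay within 2-fold in either direction. For the remaining genes the interval reached beyond a 2-fold difference between the backgrounds.

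The effect beside ABA differed from that beside ACC for more genes. The difference passed the test for 253 genes (1.08% of those tested), with 156 above 0 (0.666%) and 97 below 0 (0.414%). Of the 156, 76 fell beside ACC and were not called beside ABA, 41 rose beside ABA and were not called beside ACC, and 12 rose beside ABA and fell beside ACC. Of the 97, 44 rose beside ACC and were not called beside ABA, 30 fell beside ABA and were not called beside ACC, and 6 rose in both, with a median log2 fold change of 1.12 beside ABA and 1.90 beside ACC. Over the 156 genes the median effect was 0.56 beside ABA and -0.55 beside ACC, and in water it was -0.016. Over the 97 genes it was -0.31 beside ABA, 0.44 beside ACC and 0.029 in water. Both sets were chosen by this difference, so the order of their medians beside ABA and beside ACC is fixed by the choice. In neither of these backgrounds were 25 of the 156 and 16 of the 97 called. The libraries of CLE12p and water are outside this contrast but entered the shared fit, and with only the compared libraries 525 genes were called, 245 of them among the 253. The number of genes depended on every library. It was 161, 48 and 432 without replicates 1, 2 and 3 of CLE12p with ABA and 11, 42 and 72 without those of ABA. It was 491, 63 and 45 without those of CLE12p with ACC and 110, 23 and 81 without those of ACC. A core of 11 genes was called in the full fit and in each of the 12 fits without 1 library.

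**Figure D4:**
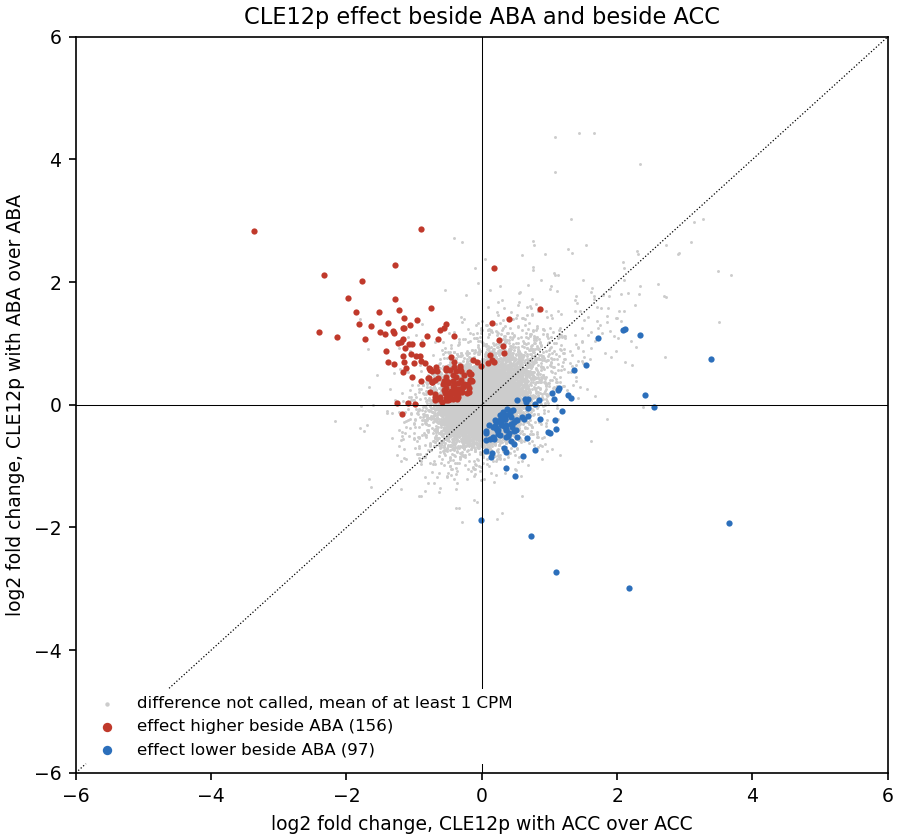
Log2 fold change of CLE12p with ABA over ABA (vertical axis) against that of CLE12p with ACC over ACC (horizontal axis), a point per gene; red marks the 156 genes whose effect was higher beside ABA, blue the 97 whose effect was lower, grey marks other genes with a mean of at least 1 CPM, and the dotted line marks equal effects. Red points lie mostly in the upper left and blue points mostly in the lower right, while grey points with large changes lie mostly in the upper right, where the peptide raised genes in both backgrounds. The red and blue genes were chosen by the difference between the axes, which fixes their side of the dotted line.

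Lsat_1_v5_gn_7_94901 had the smallest p for this difference. It stood at 13.5, 15.3 and 9.78 CPM in CLE12p with ABA and at 4.31, 3.74 and 4.93 CPM in ABA, a 2.98-fold rise (log2 fold change 1.58 with SE 0.18; adjusted p = 8.51e-06, edgeR). It stood at 12.4, 10.2 and 10.8 CPM in CLE12p with ACC and at 15.9, 20.4 and 20.2 CPM in ACC, where it was 1.69-fold lower (adjusted p = 0.00691). The difference of the effects was 2.33 ± 0.24 log2 units (SE; adjusted p = 7.72e-05). The 3 groups with the peptide had means of 12.9 ± 2.84, 11.2 ± 1.15 and 11.5 ± 1.80 CPM (SD, n = 3; with ABA, with ACC and alone), within 2 CPM of each other. Without the peptide the means lay apart, at 4.32 ± 0.595 in ABA, 18.8 ± 2.53 in ACC and 9.63 ± 1.41 in water.

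Lsat_1_v5_gn_7_60561 had effects of the opposite signs. Its level was 13.3, 11.0 and 15.6 CPM in CLE12p with ABA and 16.7, 17.9 and 17.8 CPM in ABA. All 3 libraries of CLE12p with ABA were lower, but that change did not pass the test (-0.39 ± 0.15; adjusted p = 0.149, edgeR). Its level was 12.3, 12.4 and 14.3 CPM in CLE12p with ACC and 4.78, 6.62 and 6.80 CPM in ACC, a rise of 1.09 ± 0.16 (adjusted p = 9.91e-05). The difference of the effects was -1.49 ± 0.21 (adjusted p = 0.00664). The peptide alone gave 17.4, 13.5 and 13.1 CPM, against 7.07, 9.04 and 8.22 CPM in water. Its means with the peptide were 13.3, 13.0 and 14.7 CPM (with ABA, with ACC and alone), and those without it 17.5, 6.07 and 8.11 CPM (ABA, ACC and water).

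The other two genes named for this difference differed more between the groups with the peptide. Lsat_1_v5_gn_8_51160 had 6.05, 5.84 and 3.96 CPM in CLE12p with ABA and 1.91, 1.40 and 2.63 CPM in ABA, whereas it had 1.06, 1.60 and 1.86 CPM in CLE12p with ACC and 3.45, 3.33 and 3.32 CPM in ACC. It rose beside ABA (1.42, adjusted p = 0.00552, edgeR) and fell beside ACC (-1.15, adjusted p = 0.0232, edgeR). The difference was 2.57 ± 0.41 (adjusted p = 0.0121, edgeR). In water its change with the peptide did not pass the test (-0.13, adjusted p = 0.870, edgeR). Nor did the difference between its effect beside ABA and that in water (1.55, adjusted p = 0.407, edgeR). Lsat_1_v5_gn_8_10000 had 0.958, 0.543 and 1.07 CPM in CLE12p with ABA and 3.21, 4.77 and 3.43 CPM in ABA. Beside ACC it had 3.87, 3.00 and 5.83 CPM with the peptide and 2.66, 2.77 and 2.28 CPM without it. It fell beside ABA (-2.14; adjusted p = 2.91e-04), its change beside ACC did not pass the test (0.73; adjusted p = 0.155), and the difference was -2.87 ± 0.42 (adjusted p = 0.00664). The peptide alone also lowered Lsat_1_v5_gn_8_10000 in water (-0.94, adjusted p = 0.0285, edgeR). The difference between its effect beside ABA and that in water did not pass the test (-1.20, adjusted p = 0.542, edgeR). Its level was also lower in ABA than in ethanol (-1.52, adjusted p = 6.34e-04, edgeR) and in ACC than in water (-1.98, adjusted p = 5.16e-05, edgeR). Each of the 4 differences between beside ABA and beside ACC stayed past the threshold in all 17 alternatives run for it. That of Lsat_1_v5_gn_8_51160 came close to the threshold without ACC replicate 2 (adjusted p = 0.0486, edgeR).

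**Figure D5:**
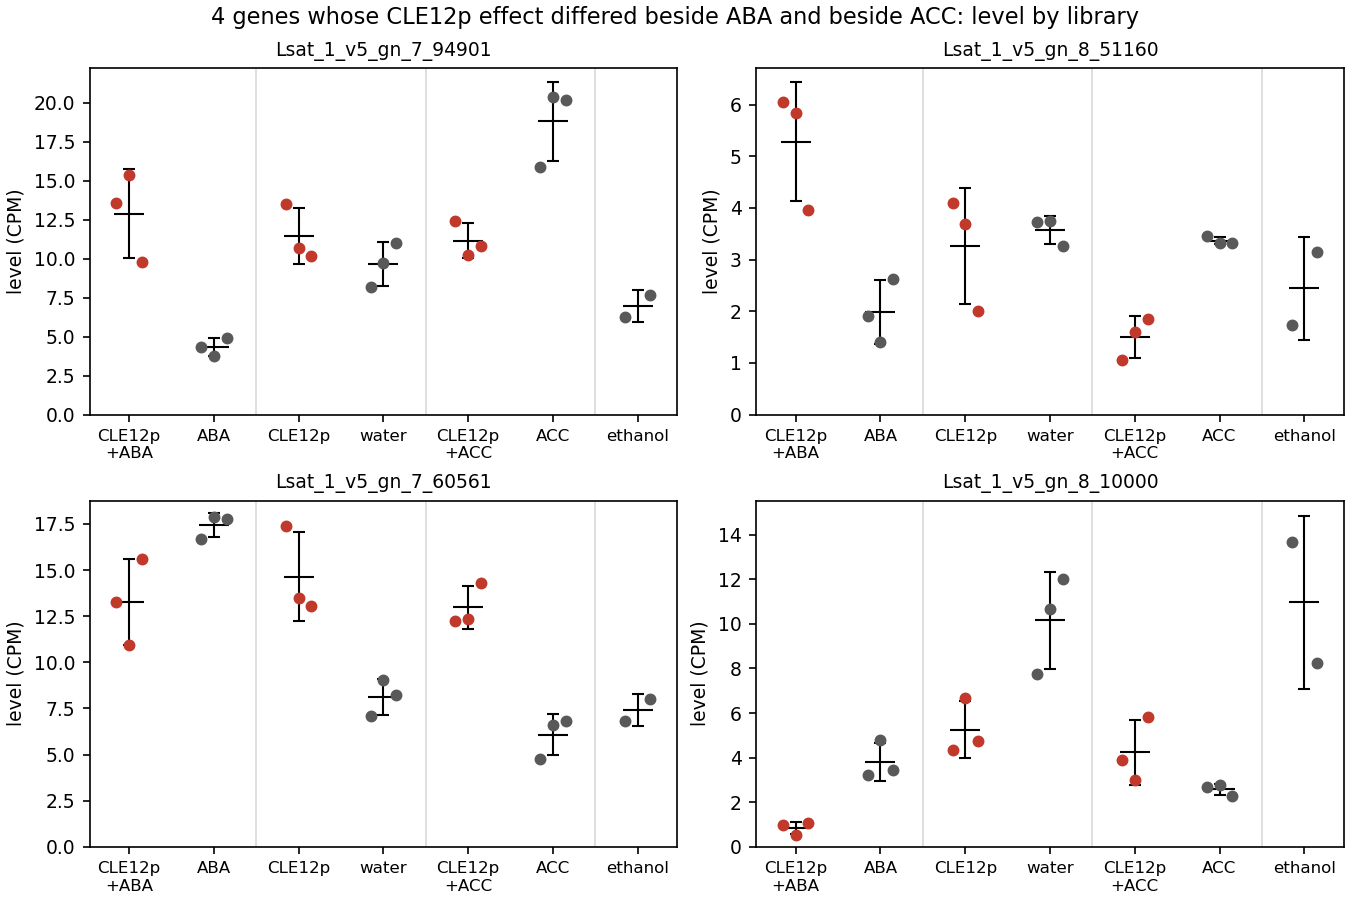
Level in CPM (vertical axis) of 4 genes whose CLE12p effect differed beside ABA and beside ACC, in each library of the 7 groups; red points are libraries with CLE12p, grey points libraries without it, and bars give the mean ± SD (n = 3, ethanol n = 2). In both left panels the groups with CLE12p lie close together while ABA and ACC lie apart, and in the lower right panel CLE12p with ABA has the lowest level of the 7 groups.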

How the data were processed

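Transcripts were counted in 20 libraries of whole lettuce seedlings in 7 treatment groups, named by the sample titles. The files deposited by the authors give raw counts of reads for each gene model, a column to a library. The submitters' processing notes name STAR 2.7.10a. Of the counting program, strand setting, genome build and gene models, each is not given in the sources used here, so reads of overlapping, antisense and near-identical genes cannot be told apart. Of 37828 gene models 9654 had 0 counts everywhere.

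The counts went into edgeR 4.0.16 (R 4.3.3): filterByExpr (minimum 10 counts, 23413 genes kept), TMM factors on library totals, group means over all 20 libraries, two-sided quasi-likelihood F-tests, and Benjamini-Hochberg adjustment over all genes with a threshold of 0.05. Tests against 1.5-fold used glmTreat. Standard errors are the absolute log2 fold change over the square root of F, and 95% intervals use the t distribution. CPM values are on TMM-scaled totals, and log2 CPM add a prior count of 2. The fit was run on simulated counts in which all groups shared the same spread per gene. That run does not cover the wider spread among the libraries with CLE12p. Alternatives were DESeq2 1.42.0, limma 3.58.1, other scaling and filters, fewer libraries, a replicate block and ethanol in place of water.

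Genes are named by smallest p among those called, 2 above 0 and 2 below 0 in each contrast. For CLE12p with ABA against ABA they also needed a mean of 1 log2 CPM or more and libraries that did not overlap, as 12.4% of genes did upward and 12.4% downward. Comparisons, rules and gene sets were chosen with earlier results of these data known.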

Additional observations from a re-analysis of the deposited data

Results flagged for a closer look

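Both tests of a difference between backgrounds gave calls, by a test of the difference itself. No group had the 4 to 10 libraries needed to look for an outlying one. The peptide's effect beside ABA differed from that in water for 1 gene, Lsat_1_v5_gn_1_77780. It had 9.23, 9.46 and 7.51 CPM in CLE12p with ABA and 6.70, 6.62 and 6.48 CPM in ABA. Its levels were 6.49, 7.31 and 6.46 CPM in CLE12p and 15.3, 17.4 and 18.7 CPM in water. The change beside ABA did not itself pass the test (0.40, adjusted p = 0.240, edgeR). In water the gene fell with the peptide (-1.34, adjusted p = 3.81e-05, edgeR). The difference was 1.74 ± 0.25 on the log2 scale (SE; adjusted p = 0.0183, edgeR), and the call was kept in 8 of 18 alternatives, with adjusted p up to 0.501. With ethanol (6.87 and 12.2 CPM) in place of water the difference was 0.91 and did not pass.

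The effect beside ABA differed from that beside ACC for 253 genes. The 4 named genes had differences of 2.33 (Lsat_1_v5_gn_7_94901), 2.57 (Lsat_1_v5_gn_8_51160), -1.49 (Lsat_1_v5_gn_7_60561) and -2.87 (Lsat_1_v5_gn_8_10000) on the log2 scale.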

How the results depend on the processing

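With 1 of the 6 libraries left out, 381 to 1018 genes were called for CLE12p with ABA against ABA, against 919 in the full fit, and other settings gave 799 to 1352. Genes also called in water (446) numbered 287 to 645 without 1 of 12 libraries, and those also called beside ACC (312) 225 to 303. The difference between beside ABA and in water had 1 call; 2 without a filter on low counts, 16 with DESeq2, 0 with ethanol in place of water (1415 at an unadjusted p below 0.05 in edgeR) and 0 to 4 without 1 library. The difference between beside ABA and beside ACC had 253 calls; 433 without a filter, 525 with only the libraries compared, 612 with DESeq2, 160 with the replicate block and 11 to 491 without 1 library. Same-numbered libraries of CLE12p with ABA and of ABA did not deviate together (r of 0.018, -0.045 and -0.040 across genes). So few libraries cannot settle whether the samples were paired, and the labels do not say. The replicate block gave 799 calls for CLE12p with ABA against ABA. No named gene changed sign, and 124 of 134 alternatives over the 9 genes kept the call, the other 10 all for Lsat_1_v5_gn_1_77780. Why the counts changed was not tested. Genes under 1 CPM (2933) have too few counts for changes of a few fold to pass.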

Other observations

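Some gene models had counts in one group and none in the other. Of all models, 807 had counts in CLE12p with ABA and 0 in all 3 ABA libraries, and 643 had counts in ABA and 0 in all 3 libraries of CLE12p with ABA. Most of them had few counts. Of the 807 models 25 had at least 10 counts summed over CLE12p with ABA, and 1 had at least 5 in each of its libraries. Of the 643 models 11 had at least 10 counts summed over ABA, and 0 had at least 5 in each library. 5 of the 25 and 1 of the 11 passed the filter on low counts, and 0 of the 25 and 0 of the 11 were called.

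Over the 620 rising genes the median log2 fold change of CLE12p with ABA over ethanol was 0.46 and that of ABA over ethanol was -0.22. Over the 299 falling genes these were -0.36 and 0.12. Both comparisons share libraries with the one that chose the genes and share the ethanol libraries, so the values are given side by side and nothing is read from their order.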
